A study of Mus musculus with 6 samples.

Results

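A set of 9 genes of the colon epithelium that encode antibacterial and acute phase proteins was followed along the large intestine of the mouse: Lypd8, Pglyrp1, Pla2g10, Ang, Saa1, Saa2, Saa3, Lcn2 and Slpi. They were taken by symbol from tables of 24346 gene entries, and all 9 were found. The set holds proteins that act on bacteria at the epithelial surface (Lypd8, Pglyrp1, Pla2g10, Ang), the 3 inducible serum amyloid A proteins, and a pair of inducible secreted proteins (Lcn2, Slpi) known from inflamed epithelium.

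The colon holds dense bacteria, and its epithelial cells help to keep them off the surface with a mucus layer and with secreted or membrane-anchored proteins. Some of these proteins are made constantly. Others, such as serum amyloid A and lipocalin 2, belong to the acute phase response, in which cytokines such as IL-22, IL-17, IL-1 and IL-6 raise transcription through STAT3, NF-kB and C/EBP factors. Serum amyloid A binds lipids and retinol and is made by the liver as well as by the intestinal epithelium, where contact with certain bacteria induces it.

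The libraries were made from polyadenylated RNA of epithelial cells from wild-type C57BL/6J mice, an inbred strain, that had received no treatment. The groups are the proximal colon, next to the caecum, the middle colon and the distal colon, next to the rectum, each with 1 library from males and 1 from females (n = 2 libraries per region, 6 in all). All groups share genotype, strain and the lack of treatment. Age, the number of mice behind each library and any sharing of mice between regions are not in the labels. The spread that the p-values measure is thus that between these libraries, and it may be technical.

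Values are FPKM, fragments per kilobase of transcript and per fixed number of mapped fragments, so levels of different genes can be set side by side per length. Depth, estimated from the steps between the smallest values, was 7.86 to 9.92 M fragments for the different libraries. Between 11170 and 11473 entries reached 1 FPKM. The sum of 7 epithelial marker genes lay between 8147 and 9593 FPKM. Neutrophil markers, 12 of 13 in the tables, summed to 0 to 0.894 FPKM, and the defining genes S100a9, Ngp, Camp and Elane were listed at 0 in every library. The 4 alpha-defensins on the Paneth cell list of 7 genes were also listed at 0 throughout. The list summed to 1.90 to 16.3 FPKM, with Pla2g2a up to 15.7, Mmp7 up to 2.81 and Lyz1 up to 0.598 FPKM. The macrophage list summed to 21.5 to 42.6 FPKM, most of it Cd14. On that list Adgre1 did not exceed 0.0998 FPKM and Fcgr1 was listed at 0, while Cd68 lay between 0.733 and 2.27 FPKM. The fibroblast list summed to 4.1 to 7.8 FPKM, with Pdgfrb at 2.90 to 4.39 and Dcn at 0.379 to 2.48 FPKM. Of 9 T cell markers 8 were in the tables, and their sum was 38.2 FPKM in the proximal library of males and 14.9 FPKM in that of females against 3.29 to 7.49 FPKM in the other 4. The male proximal library stood apart in several genes named below. In bulk RNA, fewer cells of a type and less RNA per cell cannot be told apart.

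The set spanned a wide range of expression. Lypd8 was the most abundant entry in 5 of the 6 libraries, Saa1 and Pglyrp1 followed at 126 to 2123 FPKM, Pla2g10 and Ang stood at 16.2 to 86.0 FPKM, and Saa2, Saa3, Slpi and Lcn2 were low or close to undetected. In limma's fit of region and sex over all 11815 entries with at least 1 FPKM in at least 2 libraries, 8 of the 9 genes could be tested, Lcn2 being too low. Between the ends of the colon, Pglyrp1 and Pla2g10 were higher and Ang and Saa3 lower in the distal colon at an adjusted p under 0.05, while Lypd8, Saa1, Saa2 and Slpi did not pass. Over all tested entries 6.47% were called higher and 7.64% lower in distal colon. The median difference, distal minus proximal, was 0.69 on the log2(FPKM + 1) scale over the 8 genes and 0.01 over all tested entries. Both distal libraries lay above both proximal libraries for 4 of the 8, Lypd8, Pglyrp1, Pla2g10 and Saa1, and below them for Ang and Saa3. Among all tested entries 30.8% lay above and 29.5% below in this way, so the counts without overlap are common here.

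**Figure D1:**
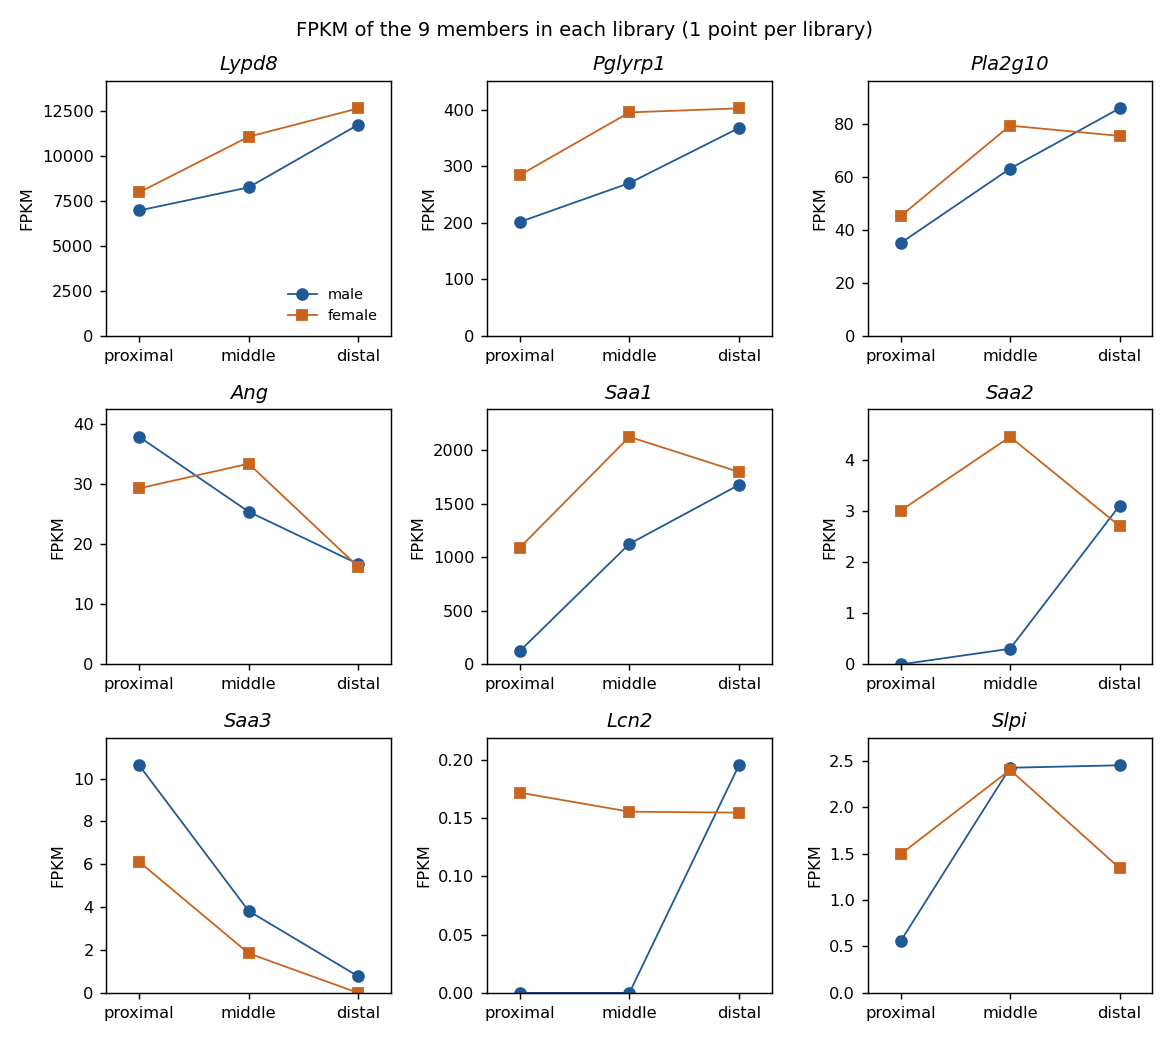
FPKM (linear axis from 0, its own scale in each panel) of the 9 genes in each of the 6 libraries, by region of the colon; circles joined by lines are the male and squares the female libraries. Lypd8 reached 12669.7 FPKM and Lcn2 no more than 0.195 FPKM, and Saa3 went from 10.6 and 6.12 FPKM in the proximal libraries to 0.773 and 0 FPKM in the distal ones.

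Lypd8 encodes a glycosylphosphatidylinositol-anchored protein of the Ly6/uPAR family that is shed into the lumen and binds the flagella of bacteria. It lies on mm10 at chr11:58379043-58390728 on the plus strand. Its level was 6985, 8272 and 11760.2 FPKM in the proximal, middle and distal libraries of males and 7996, 11090.4 and 12669.7 FPKM in those of females. The level was lowest in the proximal and highest in the distal library of both sexes, and the ranges of the 3 regions did not overlap. Lypd8 made up 1.21% to 2.09% of the summed FPKM of a library and ranked first in 5 of the 6. In the male proximal library it ranked 2, behind the carbonic anhydrase gene Car1 at 19757 FPKM. The distal level was 1.68-fold the proximal one in males and 1.58-fold in females. The regional means were 7491 ± 715, 9681 ± 1993 and 12215 ± 643 FPKM (SD, n = 2). In limma's fit the distal minus proximal difference of 0.71 (SE 0.27, 95% interval 0.03 to 1.39, log2 scale) had an adjusted p of 0.158 and did not pass. Of 8 other settings run, 7 did not pass either, among them quantile normalization (difference 0.47, limma, adjusted p = 0.333). The 1 that passed left out the trend of variance with expression level (limma, adjusted p = 0.0317). With a library left out the difference was 0.61 to 0.81. The promoter is shown because it belongs to the most abundant transcript in the set, with the 1 match in capitals to a TATA motif (TATANA), 18 bases before the RefSeq start site (RefSeq, GRCm38.p6).
Lypd8 promoter, chr11:58378782-58379081 (plus strand): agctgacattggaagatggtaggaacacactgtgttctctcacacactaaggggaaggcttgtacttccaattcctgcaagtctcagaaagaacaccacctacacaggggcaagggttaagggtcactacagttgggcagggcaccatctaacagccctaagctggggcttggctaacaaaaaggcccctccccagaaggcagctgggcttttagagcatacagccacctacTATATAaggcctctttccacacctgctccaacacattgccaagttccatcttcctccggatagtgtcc

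Of the other Ly6/uPAR genes, 18 of 20 were in the tables, 4 of them listed at 0 throughout, and 9 could be tested. In distal against proximal colon 3 were higher and 1 lower, and the median difference was 0.60 on the log2 scale. All tested entries had 6.47% called higher and 7.64% lower, with a median of 0.01. Ly6g6e stood at 4.94, 13.4 and 25.1 FPKM in the proximal, middle and distal libraries of males and at 7.53, 18.5 and 22.7 FPKM in those of females, a rise of 1.81 on the log2 scale from proximal to distal (limma, adjusted p = 0.00524). Ly6c1 rose by 1.74 (limma, adjusted p = 0.0166) from the low level of 0.458 ± 0.170 FPKM (SD, n = 2). Plaur, the urokinase receptor, fell by 1.95 (limma, adjusted p = 0.00233), from 22.4 and 26.1 FPKM in the proximal to 5.85 and 5.23 FPKM in the distal libraries. Lypd6b was higher in middle than in proximal colon by 1.23 (limma, adjusted p = 0.0370), at 3.26 and 4.23 against 0.659 and 1.45 FPKM. None of these relatives came near the level of Lypd8.

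Pglyrp1 encodes a short peptidoglycan recognition protein that binds the bacterial cell wall and is bactericidal. It lies at chr7:18871331-18890459 on the plus strand. The proximal, middle and distal libraries of males held 202, 271 and 368 FPKM and those of females 285, 396 and 403 FPKM. Both distal libraries were above both proximal ones, while the middle range overlapped each end. The female library was the higher of the pair in each region. Pglyrp1 rose by 0.68 (SE 0.14) on the log2 scale from proximal to distal colon (limma, adjusted p = 0.0357), a distal level of 1.82-fold the proximal in males and 1.42-fold in females. The call was lost without the male proximal (limma, adjusted p = 0.107), male distal (0.334), female proximal (0.0520) or female distal library (0.0739), with a difference of 0.49 to 0.88 in each case. It was also lost without the filter on low values (limma, adjusted p = 0.0725) and with sex left out of the model (0.136). The ratio of Lypd8 to Pglyrp1 FPKM stayed between 28.0 and 34.6 in all 6 libraries. The other peptidoglycan-binding or -cleaving genes were low. None of the 7 could be tested, Pglyrp3, Pglyrp4, Lyg1 and Lyg2 were listed at 0 throughout, and the highest value was 3.79 FPKM for Lyz2, a lysozyme, in the female middle library.

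Pla2g10 encodes the group X secreted phospholipase A2, which cleaves phospholipids, among them phosphatidylcholine. It lies at chr16:13715057-13730983 on the minus strand and overlaps the antisense gene Pla2g10os, at 28.7 to 62.7 FPKM. The libraries are of a strand-specific kind, but whether the counting used strand is not given in the sources used here. Pla2g10 stood at 35.1, 63.2 and 86.0 FPKM in the proximal, middle and distal libraries of males. The female libraries held 45.3, 79.5 and 75.6 FPKM in the same order. Both proximal libraries lay below the other 4, and the middle and distal ranges overlapped. From proximal to distal colon Pla2g10 rose by 0.999 (SE 0.16) on the log2 scale (limma, adjusted p = 0.0162), or 2.45-fold in males and 1.67-fold in females. The call was lost without the male distal library (difference 0.74, limma, adjusted p = 0.0952). The middle minus proximal difference was 0.82 (limma, adjusted p = 0.0682). It did not pass in any of 8 other settings, and with a library left out it was 0.67 to 0.96.

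Among the other secreted phospholipases A2, Pla2g5, Pla2g2f and Pla2g12a were called between the ends of the colon. Of the 11 genes on this list, the receptor Pla2r1 included, 7 could be tested. In distal against proximal colon 2 were higher and 1 lower, with a median difference of 0.66 on the log2 scale. All tested entries had 6.47% called higher and 7.64% lower, with a median of 0.01. Pla2g5 rose by 2.82 (limma, adjusted p = 0.00612), from 1.76 (male) and 3.97 FPKM (female) in the proximal to 29.6 and 21.5 FPKM in the distal libraries. Pla2g2f rose by 2.80 (limma, adjusted p = 0.00638), from 1.40 and 5.80 to 25.5 and 28.6 FPKM. Both were also higher in middle than in proximal colon, by 2.44 and 2.60 (limma, adjusted p = 0.0291 and 0.0274). Pla2g12a fell by 1.14 (limma, adjusted p = 0.00904), from 6.98 and 7.45 to 2.41 and 3.09 FPKM. Pla2g2a, in which the C57BL/6 strain carries a disrupting mutation, was listed at 0.422 to 15.7 FPKM and was not called. Pla2g10 had the highest FPKM of these enzymes in all 6 libraries.

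Ang encodes angiogenin, a secreted ribonuclease of the RNase A family with antimicrobial and vessel-forming activity. It lies at chr14:51091150-51102009 on the plus strand, inside Rnase4 (chr14:51091077-51106151, plus strand), another ribonuclease gene that shares first exons and promoters with it. The proximal, middle and distal libraries of males held 37.8, 25.4 and 16.7 FPKM and those of females 29.2, 33.3 and 16.2 FPKM. Both distal libraries lay below the other 4, and the proximal and middle ranges overlapped. The distal colon was lowest at 16.4 ± 0.330 FPKM, against 29.3 ± 5.64 FPKM in the middle and 33.5 ± 6.05 FPKM in the proximal colon (SD, n = 2). From proximal to distal colon Ang fell by 0.97 (SE 0.18) on the log2 scale (limma, adjusted p = 0.0258). The call was lost without the male (difference -0.998) or the female distal library (-0.949). It was also lost without the filter on low values (limma, adjusted p = 0.0622). Summed with Ang2, Ang4, Ang5 and Ang6, the difference was -1.31 and did not pass (limma, adjusted p = 0.118). Ang2, Ang5 and Ang6 were listed at 0 throughout, so that sum is Ang plus Ang4, which reached 197 FPKM. Summed with the overlapping Rnase4, the call was kept (difference -1.22, limma, adjusted p = 0.0107). Rnase4 was the more abundant of this pair in every library, so the sum mostly follows Rnase4. For Ang, the distal minus middle difference of -0.79 (limma, adjusted p = 0.182) did not pass, nor did it in any of 10 other settings. With a library left out it was -1.08 to -0.50.

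Rnase4 stood at 135, 77.0 and 53.6 FPKM in the proximal, middle and distal libraries of males and at 98.5, 82.4 and 40.6 FPKM in those of females. It was lower in each region than in the one before it in both sexes, unlike Ang, which was higher in the middle than in the proximal library of females. Rnase4 fell by 1.29 on the log2 scale from proximal to distal colon (limma, adjusted p = 0.00811), and its FPKM was 2.47 to 3.58 times that of Ang in the 6 libraries. Of the 100-base windows of the Ang transcript Ang-201, 1.71% occur in Rnase4 transcripts as well, and of the 50-base windows 10.6% occur in transcripts of other genes, so how fragments were divided can move both values. The promoter is shown because the RefSeq promoter of Ang is identical to 1 of the 2 listed for Rnase4. Capitals mark matches to TATANA, to a loose C/EBP-like motif (TTNCNNAA) and to the GC box (GGGCGG, here on the other strand).
Ang promoter, chr14:51090827-51091126 (plus strand): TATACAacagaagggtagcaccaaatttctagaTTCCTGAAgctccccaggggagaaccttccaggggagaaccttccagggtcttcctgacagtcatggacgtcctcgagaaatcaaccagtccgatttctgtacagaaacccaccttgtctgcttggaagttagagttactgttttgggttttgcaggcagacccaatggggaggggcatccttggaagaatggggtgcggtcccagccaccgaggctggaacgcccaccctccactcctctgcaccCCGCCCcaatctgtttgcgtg

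Of the 10 other genes on the ribonuclease list, 4 were listed at 0 throughout and 3 could be tested. Rnase4 alone was called, in distal against proximal colon. Ang4, which encodes a bactericidal ribonuclease of goblet and Paneth cells, varied most. It was at 2.53, 19.4 and 3.35 FPKM in the proximal, middle and distal libraries of males and at 54.4, 197 and 9.80 FPKM in those of females. The female library was the higher in each region and the middle library the highest in each sex, but Ang4 was not called in any comparison. Its middle minus proximal difference was 2.18 (limma, adjusted p = 0.135) and its distal minus middle difference -3.21 (limma, adjusted p = 0.125). The distal minus proximal difference was -1.03 (limma, adjusted p = 0.324), with opposite directions in the sexes, and the female minus male difference 2.85 (limma, adjusted p = 0.331). Summed goblet cell markers were also highest in the female middle library, at 16349 FPKM against 6167 to 11438 FPKM in the other 5. This sum follows its most abundant genes, Zg16 first (6676 FPKM there). Muc2 was highest in the male middle library (1980 against 997 FPKM in the female middle one). Spdef was highest in the male proximal library (76.2 against 32.1 FPKM), and the other markers of the list were highest in the female middle library. The part of goblet cells in the Ang4 values was not tested. Ang2, Ang5 and Ang6 were listed at 0 in every library.

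**Figure D2:**
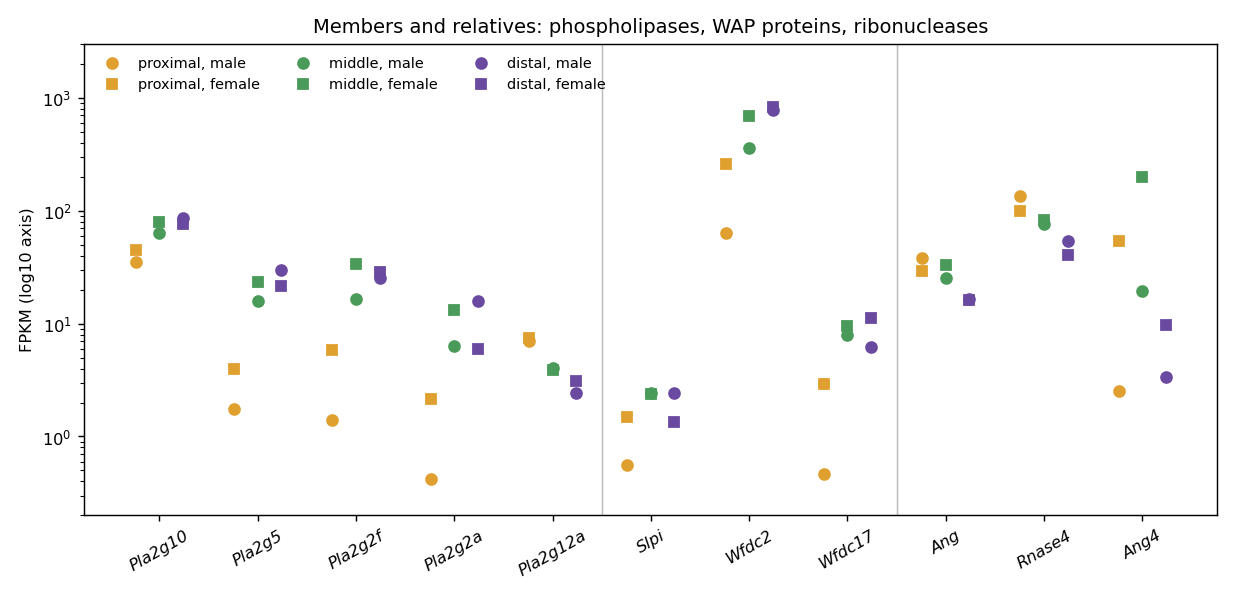
FPKM (log10 axis) of Pla2g10, Slpi and Ang and of related genes, with colours for the regions, circles for male and squares for female libraries. Pla2g5 and Pla2g2f lie between 1.40 and 5.80 FPKM in the proximal libraries and between 21.5 and 29.6 FPKM in the distal ones, while Ang and Rnase4 are lowest in the distal libraries.

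The serum amyloid A genes lie together on chromosome 7, in the order Saa3 (chr7:46711998-46715700, minus strand), Saa4 (chr7:46727998-46732603, minus), Saa1 (chr7:46740497-46742980, minus) and Saa2 (chr7:46751790-46754313, plus), within 42.3 kb. Saa1 and Saa2 point away from each other across 8809 bases. Their promoters are near copies: 287 of 300 aligned positions (95.7%) are identical, against 51.7% for Saa1 and Saa3. They are shown because the genes they precede differed so much in level, with capitals at the bases that Saa1 and Saa2 do not share (RefSeq, GRCm38.p6, 250 bases before to 50 after each start site).
Saa1 promoter, chr7:46742931-46743230 (minus strand): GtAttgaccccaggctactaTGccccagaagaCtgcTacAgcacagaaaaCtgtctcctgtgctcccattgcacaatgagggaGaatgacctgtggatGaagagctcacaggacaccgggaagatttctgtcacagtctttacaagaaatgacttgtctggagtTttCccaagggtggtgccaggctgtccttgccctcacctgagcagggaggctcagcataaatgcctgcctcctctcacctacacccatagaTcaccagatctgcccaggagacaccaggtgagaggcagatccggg
Saa2 promoter, chr7:46751583-46751882 (plus strand): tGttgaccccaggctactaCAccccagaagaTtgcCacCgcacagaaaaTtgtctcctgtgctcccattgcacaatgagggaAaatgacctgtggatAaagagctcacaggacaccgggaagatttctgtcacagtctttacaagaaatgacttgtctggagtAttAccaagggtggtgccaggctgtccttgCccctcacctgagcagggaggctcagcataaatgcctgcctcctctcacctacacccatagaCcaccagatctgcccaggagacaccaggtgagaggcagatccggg
Saa3 promoter, chr7:46715627-46715926 (minus strand): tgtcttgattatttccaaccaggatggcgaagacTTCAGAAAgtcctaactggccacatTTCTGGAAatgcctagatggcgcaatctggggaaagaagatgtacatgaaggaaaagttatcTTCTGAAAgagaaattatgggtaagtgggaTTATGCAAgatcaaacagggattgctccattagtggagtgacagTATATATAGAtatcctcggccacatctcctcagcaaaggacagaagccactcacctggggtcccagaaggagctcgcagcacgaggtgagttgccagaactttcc
In the Saa3 promoter, which went with the opposite regional course, capitals mark instead the matches to TTNCNNAA (4 matches) and TATANA. The Saa1 and Saa2 promoters share a TTNCNNAA match reading TTGCACAA, and Saa1 has a second, TTTCCCAA, at 86 bases before its start that Saa2 lacks.

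Both strands of all 9 promoters were searched, and 27025 promoters of the same length gave the background. TTNCNNAA was found in 7 of the 9 and in 40.7% of all promoters. A STAT motif (TTCNNNGAA) was found in 0 of the 9 and in 8.47% of all. TATANA was found in Lypd8, Ang and Saa3 and in 25.4% of all, and GGGCGG in Pglyrp1, Pla2g10, Ang and Lcn2 and in 35.9% of all. The NF-kB motif was found in Pglyrp1 only, 93 bases before its start and overlapping the GC box there, and in 4.35% of all promoters. These are matches of letters within the windows and say nothing of binding.

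The transcripts of Saa1 and Saa2 are alike as well. Their coding parts, of 366 bases each, are identical at 95.1% of positions, and Saa1 and Saa3 at 75.9% of aligned positions. The stretch from coding base 60 to 149 (GENCODE M21) holds 11 of the 18 differences and is shown, with these in capitals, because fragments that cover it can be told apart.
Saa1 coding: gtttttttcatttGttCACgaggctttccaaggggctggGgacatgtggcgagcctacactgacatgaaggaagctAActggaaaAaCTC
Saa2 coding: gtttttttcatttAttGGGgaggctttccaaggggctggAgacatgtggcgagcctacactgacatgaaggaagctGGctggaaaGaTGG
Of the 50-base windows of the Saa1 transcript 14.8% occur in another gene, 74 of 560 in Saa2 and 9 in Saa3, and of the 100-base windows none. For Saa2 the share of 50-base windows is 13.3% and for Saa3 1.78%. The read length is not given in the sources used here, so how many fragments could be exchanged is not known.

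Saa1 was the abundant gene of the family and Saa2 was barely present. Saa1 stood at 126, 1124 and 1674.5 FPKM in the proximal, middle and distal libraries of males and at 1089, 2123 and 1795 FPKM in those of females. The male proximal library was far below the other 5, and every other library reached at least 1089 FPKM. Saa1 ranked 28 to 84 by FPKM among all entries in those 5 libraries and 736 in the male proximal library. Saa2 stood at 0, 0.308 and 3.12 FPKM along the colon of males and 3.01, 4.46 and 2.71 FPKM along that of females, or an estimated 0 to 17.9 fragments per library. Saa1 FPKM was 361 to 3649 times Saa2 FPKM in the 5 libraries in which Saa2 was above 0. The sum of both genes therefore behaved as Saa1 alone (distal minus proximal difference 2.22 on the log2 scale for either). Saa4, which encodes a constitutive serum amyloid A of the liver, did not exceed 0.208 FPKM.

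The distal level of Saa1 was 13.3-fold the proximal one in males and 1.65-fold in females, and the middle level 8.94-fold and 1.95-fold. The regional means were 607 ± 681, 1623 ± 706 and 1735 ± 85.4 FPKM (SD, n = 2), so the spread of the proximal pair exceeded its mean. In limma's fit the distal minus proximal difference of 2.22 (SE 0.68, 95% interval 0.53 to 3.92) had an adjusted p of 0.0952 and did not pass. The value depended on which libraries entered. Without the male proximal library it was 0.92 (limma, adjusted p = 0.142), and without the female one it was 3.52 (limma, adjusted p = 0.00102). It was 1.27 without the male (limma, adjusted p = 0.474) and 3.18 without the female distal library (limma, adjusted p = 0.0637). The middle minus proximal difference was 2.06 (limma, adjusted p = 0.194), 0.76 without the male proximal library (limma, adjusted p = 0.353) and 3.35 without the female one (limma, adjusted p = 0.00232). The level of Lypd8 was 5.23 to 7.36 times that of Saa1 in 5 libraries and 55.6 times in the male proximal one.

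For Saa2 the distal minus proximal difference of 0.96 (limma, adjusted p = 0.327) did not pass and rested on single libraries. It was -0.13 without the male distal library and 2.06 without the female distal library, where it passed (limma, adjusted p = 0.0202).

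Saa3, known from macrophages and fat as well as epithelium, ran the other way. It stood at 10.6, 3.82 and 0.773 FPKM in the proximal, middle and distal libraries of males and at 6.12, 1.84 and 0 FPKM in those of females. The regions did not overlap, and the male library was the higher in each region. The values correspond to an estimated 30.2, 10.8 and 2.2 fragments in the male and 19.4, 6.5 and 0 in the female libraries. From proximal to distal colon Saa3 fell by 2.77 (SE 0.15) on the log2 scale (limma, adjusted p = 0.00173), which placed it 28 of 11815 by p. The call held under the other settings run and with each of the 6 libraries left out, with a difference between -4.79 and -2.71. The minimum of 5 FPKM is no support here, since Saa3 reached it only in the proximal libraries. Because the female distal library was listed at 0, no fold is given for females.

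Summed T cell markers had their highest values in the proximal libraries, as Saa3 did. The summed T cell markers were 38.2, 4.48 and 3.29 FPKM in the proximal, middle and distal libraries of males and 14.9, 7.49 and 3.75 FPKM in those of females, with Gzma at 16.4 FPKM in the proximal library of males and 4.63 FPKM in that of females. The summed surface colonocyte markers, led by Car1, went from 27251 (male) and 16443 FPKM (female) in the proximal to 7952 and 7068 FPKM in the distal libraries. This sum follows its most abundant genes: 5 of the 9 markers, Car1 and Guca2a among them, were lower in the distal than in the proximal library of both sexes, and 4, Car4, Aqp8, Slc26a3 and Ceacam20, were higher. The summed macrophage markers went the other way, from 21.5 (male) and 23.0 FPKM (female) in the proximal to 41.4 and 42.6 FPKM in the distal libraries, with Cd14 at 12.3 and 20.7 against 37.9 and 37.8 FPKM. Of the macrophage markers C1qa reached 6.52 FPKM in the male proximal library and did not exceed 0.805 FPKM elsewhere, whereas Adgre1 was at 0 in both proximal libraries. The part of the T cell and surface colonocyte markers in the Saa3 values was not tested.

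**Figure D3:**
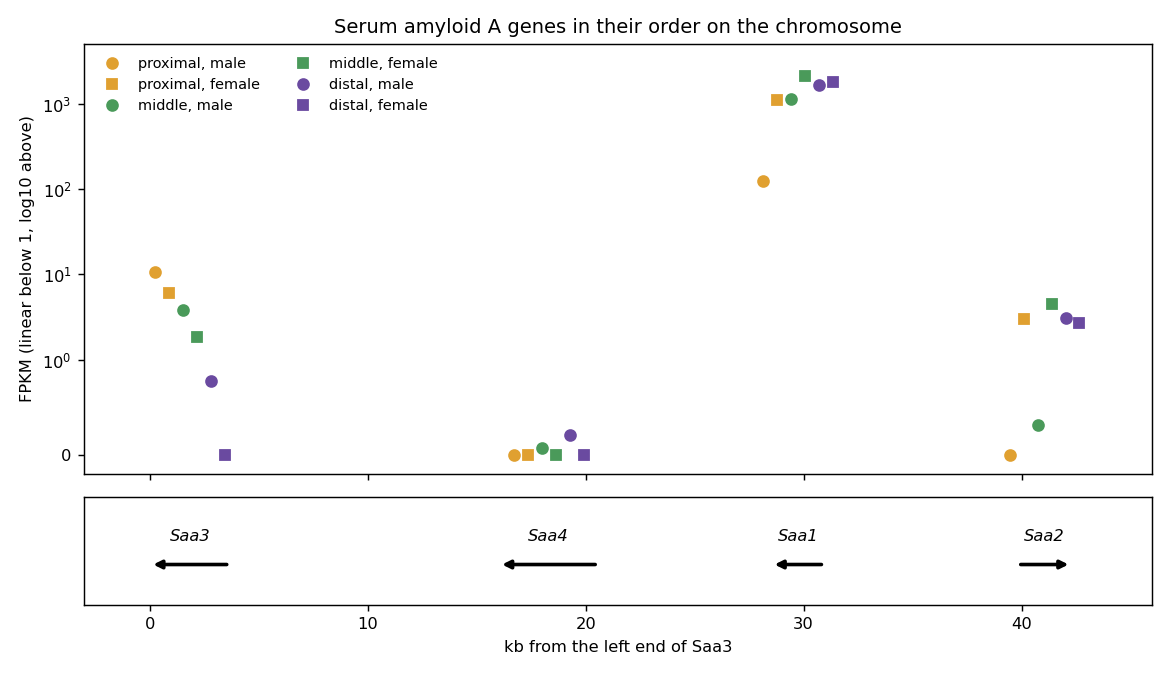
FPKM of the 4 serum amyloid A genes (upper panel, vertical axis linear below 1 and log10 above) at their places in the cluster (lower panel, arrows in the direction of transcription, kb from the left end of Saa3), with colours for the regions, circles for male and squares for female libraries. Saa1 lies at 1089 FPKM or above in all but the male proximal library, while its near copy Saa2 does not exceed 4.46 FPKM and Saa3 is highest in the proximal libraries.

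Lcn2 encodes lipocalin 2, which binds siderophores and so withholds iron from bacteria. It lies at chr2:32384633-32388252 on the minus strand. It was at 0, 0 and 0.195 FPKM in the proximal, middle and distal libraries of males and at 0.172, 0.155 and 0.155 FPKM in those of females. The 4 values above 0 each correspond to an estimated 1.1 fragments, so no level and no difference can be read at this depth. Of the 5 genes of the list of its receptors and of other iron-binding proteins, 2 could be tested. Slc22a17, a receptor of lipocalin 2, stood at 1.55 (male) and 1.66 FPKM (female) in the proximal against 0.122 and 0.289 FPKM in the distal libraries. It passed the filter on low values only through the proximal libraries, so its test is not used. Trf, which encodes transferrin, rose by 3.27 on the log2 scale from proximal to distal colon (limma, adjusted p = 0.0136), from 0.879 and 0.420 to 16.1 and 13.5 FPKM. The neutrophil iron binder Ltf stood at 0 in 4 libraries and did not exceed 0.277 FPKM.

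Slpi encodes the secretory leukocyte protease inhibitor, a WAP-domain protein that inhibits neutrophil elastase and has antibacterial activity. It lies at chr2:164354070-164389095 on the minus strand. It stood at 0.555, 2.42 and 2.45 FPKM in the proximal, middle and distal libraries of males and at 1.49, 2.40 and 1.34 FPKM in those of females. These correspond to an estimated 3.0, 13.0 and 13.0 fragments in the male and 9.0, 16.0 and 9.0 in the female libraries. Both middle libraries lay above both proximal ones, and the distal range overlapped the proximal one. The middle minus proximal difference of 0.79 and the distal minus proximal difference of 0.53 did not pass (limma, adjusted p = 0.270 and 0.333).

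Of the other WAP-domain inhibitors 2 differed between the ends of the colon. All 17 on the list were in the tables, 6 of them listed at 0 throughout. Of the 3 that could be tested, 2 were higher in distal than in proximal colon, as were 6.47% of all tested entries. Wfdc2, an epithelial protease inhibitor, was at 63.1, 363 and 777 FPKM in the proximal, middle and distal libraries of males and at 259.9, 690.5 and 822 FPKM in those of females. It rose by 2.63 on the log2 scale from proximal to distal colon (limma, adjusted p = 0.0175). Wfdc17 rose by 1.97 (limma, adjusted p = 0.0127), from 0.467 and 2.93 to 6.19 and 11.3 FPKM. In both genes the male proximal library was the lowest of the 6, as in Saa1.

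In the other regional comparisons few entries passed. Between middle and proximal colon 1.19% of all tested entries were called higher and 1.25% lower. Of the 8 genes, 0 were higher and 1, Saa3, was lower, with a difference of -1.30 (SE 0.15, limma, adjusted p = 0.0274). At an unadjusted p under 0.05 limma gave 5 of the 8, and 18.3% of all tested entries. Saa3 lost this call without the male proximal library (limma, adjusted p = 0.0502) or without the male (0.121) or female (0.193) middle library. It also lost it with a pseudocount of 0.1 (limma, adjusted p = 0.273), no filter (0.0906), a minimum of 5 FPKM (0.0539) or sex left out (0.204). The differences of Lypd8 (0.36) and Pglyrp1 (0.45) did not pass (limma, adjusted p = 0.582 and 0.187).

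Between distal and middle colon 0.11% of all tested entries were called higher and 0.389% lower. Of the 8 genes, 0 were higher and 1, again Saa3, was lower, with a difference of -1.48 (SE 0.15, limma, adjusted p = 0.0358). At an unadjusted p under 0.05 limma gave 2 of the 8, Saa3 and Ang, and 12.7% of all tested entries. The Saa3 call was lost without the male (limma, adjusted p = 0.258) or female (0.125) middle library and without the male (0.253) or female (0.144) distal library. It was also lost with a pseudocount of 0.1 (limma, adjusted p = 0.123), no filter (0.141), a minimum of 5 FPKM (0.0838) or sex left out (0.321).

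**Figure D4:**
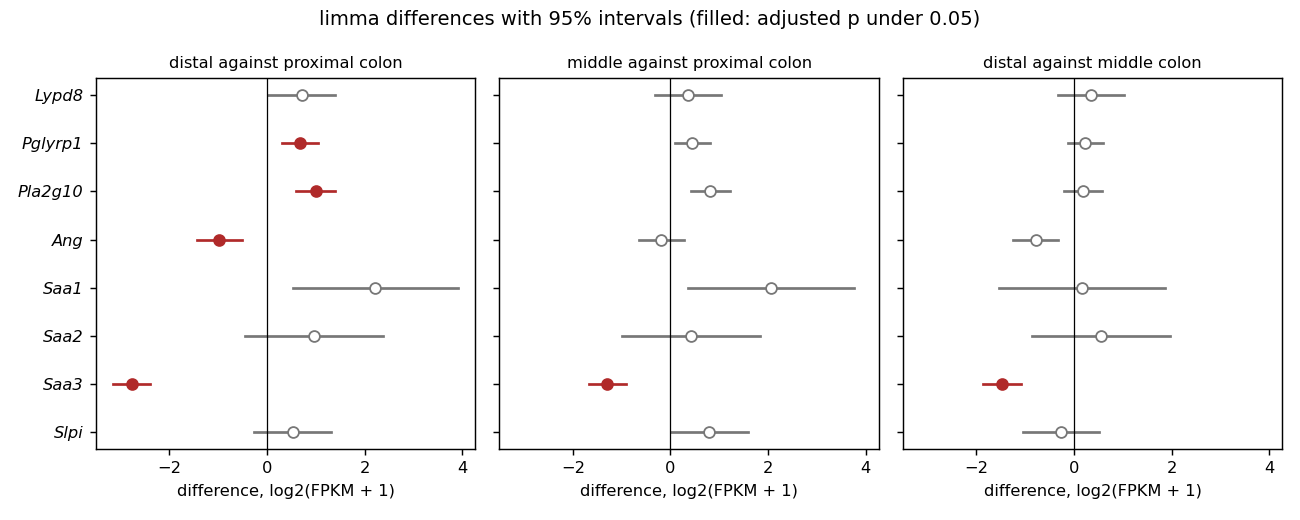
limma differences on the log2(FPKM + 1) scale (horizontal axis) of the 8 tested genes in the 3 regional comparisons, with 95% intervals as lines; filled red points had an adjusted p under 0.05. Saa3 lies below 0 in all 3 comparisons, at -2.77, -1.30 and -1.48, and the widest intervals are those of Saa1.

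Between females and males 0.00846% of all tested entries were called higher in females and 0.0339% lower. Of the 8 genes limma called 0 in either direction, and 3 had an unadjusted p under 0.05, as had 10.6% of all tested entries. Saa3 was lower in the female library of each region (difference -0.76, limma, adjusted p = 0.329). Pglyrp1 was higher in the female library of each region (0.39, limma, adjusted p = 0.429). Saa2 had a difference of 1.31 (limma, adjusted p = 0.451), and Saa1 of 1.37 (limma, adjusted p = 0.469). For Saa1 the female library was the higher in all 3 regions, by 8.67-fold in the proximal, 1.89-fold in the middle and 1.07-fold in the distal colon. With 1 proximal library left out the difference was 0.51 (limma, adjusted p = 0.420 without the male and 0.377 without the female one). A different response of the sexes along the colon could not be tested with 1 library of each sex per region.

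The receptors and regulators known to induce these genes were mostly not called between the ends of the colon. Of 25 such genes 23 could be tested, and in distal against proximal colon 3 were higher, 3 lower and 17 not called, with a median difference of 0.01 on the log2 scale. Over all tested entries 6.47% were called higher and 7.64% lower in this comparison. The IL-22 receptor gene Il22ra1 lay between 11.3 and 18.7 FPKM and the IL-17 receptor gene Il17rc between 43.4 and 70.8 FPKM. Stat3, the transcription factor downstream of IL-22 and IL-6, lay between 32.2 and 48.5 FPKM and rose by 0.45 from proximal to distal colon (limma, adjusted p = 0.0323). Cebpd, a C/EBP factor of the acute phase response, rose by 1.32 (limma, adjusted p = 0.0208), from 6.49 and 6.52 to 18.1 and 17.5 FPKM. The C/EBP factor gene Cebpa fell by 0.50 (limma, adjusted p = 0.0286), from 25.5 and 22.9 to 18.4 and 15.4 FPKM. Cebpb was not called (difference -0.22, limma, adjusted p = 0.541). Traf3ip2, an adaptor of the IL-17 receptor, rose by 0.69 (limma, adjusted p = 0.0333). Socs3, a feedback inhibitor of STAT3 signalling, fell by 1.04 (limma, adjusted p = 0.00997), from 10.9 and 8.11 to 5.29 and 3.07 FPKM. Nfkbiz, which encodes a cofactor of NF-kB, fell by 0.78 (limma, adjusted p = 0.0374), from 29.8 and 29.9 to 20.4 and 14.1 FPKM. In the other 2 regional comparisons 0 of the 23 passed.

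Other epithelial genes known to be induced by IL-22 or IL-17 were called in both directions between the ends of the colon. Of 24 genes 18 could be tested. In distal against proximal colon 2 were higher and 6 lower, with a median difference of -0.42 on the log2 scale. Over all tested entries 6.47% were called higher and 7.64% lower, and the median difference was 0.01. The 2 higher were Cxcl5 and Zg16. Cxcl5 passed the filter on low values only through the distal libraries (1.14 and 1.11 FPKM), so its test is counted but not used. Zg16 rose by 1.41 (limma, adjusted p = 0.0194), from 1025 and 1803 to 3478 and 3776 FPKM. The antibacterial lectin genes Reg3b and Reg3g were at 341 and 742 FPKM and at 116 and 139.6 FPKM in the proximal libraries of males and females and were listed at 0 in both distal libraries. Both fell from proximal to distal colon (limma, adjusted p = 0.00184 and 0.00125), and no fold is given against a value of 0. Retnlb, a goblet cell protein that acts on bacteria, fell by 5.91 (limma, adjusted p = 0.00318), and Tgm2, a transglutaminase, by 2.81 (limma, adjusted p = 0.00233). Among the serum amyloid A genes Saa3 was the one called in this direction. In middle against proximal colon 1 of the 18, Zg16, was higher (difference 1.98, limma, adjusted p = 0.0279) and 3 were lower. The shares over all tested entries there were 1.19% higher and 1.25% lower.

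Other acute phase genes were low or listed at 0. All 21 on this list were in the tables, 11 were listed at 0 in every library, and C3, a complement protein at 1.04 to 3.49 FPKM, was the only one that could be tested. Its distal minus proximal difference of 0.08 did not pass (limma, adjusted p = 0.925). The liver-type genes Hp, Crp, Apcs, Fga, Fgb and Fgg were among those listed at 0, and Lbp, Steap4 and Serpina3n did not exceed 0.867, 0.837 and 0.161 FPKM. Of this list and the serum amyloid A genes, Saa1 was the only gene to exceed 10.6 FPKM, the highest value of Saa3, in any library.

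For each of the 3 genes with a range of at least 2 on the log2 scale over the 6 libraries, the 3 genes nearest in pattern were sought among 8656 entries with a mean of at least 5 FPKM, by the root mean square distance of log2(FPKM + 1) profiles centred on their means. Nearest to Saa1 were Hoxa13 (distance 0.30), a homeobox gene of the hindgut, Anxa8 (0.31), an annexin, and Hottip (0.36), a long non-coding RNA beside the HoxA genes. Hoxa13 stood at 0.674, 19.0 and 18.9 FPKM in the proximal, middle and distal libraries of males and at 11.4, 19.6 and 16.5 FPKM in those of females. Like Saa1, it was lowest by far in the male proximal library. Nearest to Saa3 were B4galnt2 (0.19), a glycosyltransferase gene, Pstpip2 (0.19) and Sulf2 (0.19). B4galnt2 stood at 488, 215 and 83.6 FPKM along the colon of males and at 321, 134 and 62.4 FPKM along that of females. Nearest to Saa2 were Flot2 (0.51), Col16a1 (0.51) and Paics (0.55), at larger distances. These are likenesses over 6 libraries of 1 series, which share region and sex.

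**Figure D5:**
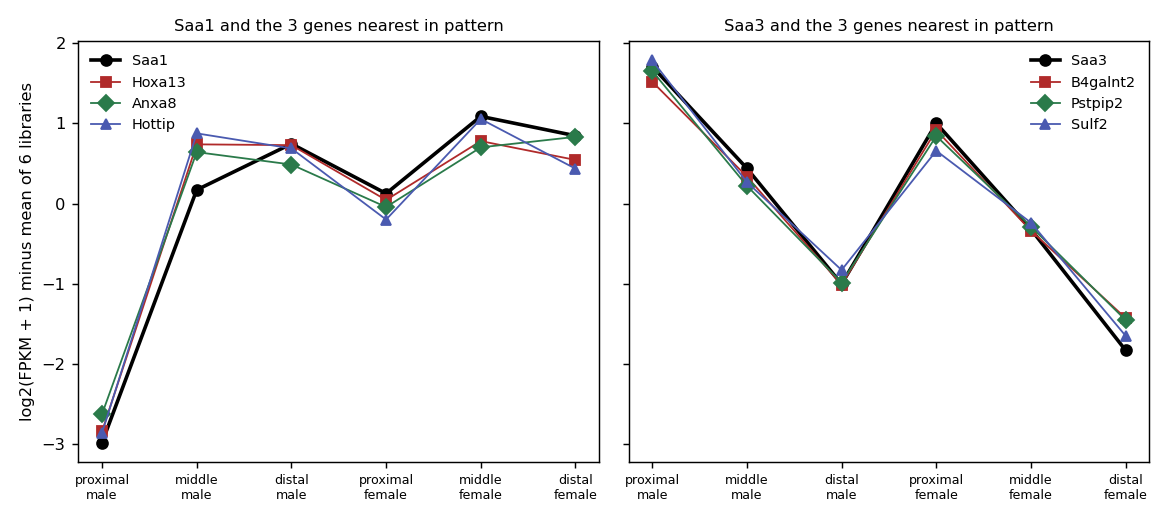
Profiles over the 6 libraries (horizontal axis) of Saa1 (left) and Saa3 (right) and of the 3 genes nearest to each, as log2(FPKM + 1) minus the gene's own mean. Saa1, Hoxa13, Anxa8 and Hottip share their lowest value in the male proximal library, and Saa3, B4galnt2, Pstpip2 and Sulf2 are highest in the proximal and lowest in the distal library of each sex.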

How the data were processed

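Gene expression was measured by RNA sequencing in 6 libraries of mouse colon epithelial cells, 1 male and 1 female library from each of 3 regions. The authors deposited 1 FPKM value per gene and library, and these are not counts, so a count model was not applied. Cuffdiff 2.2.1, TopHat2 2.1.1, SAMtools 0.1.18 and Bowtie2 2.2.8 and the build mm10 are named in the submitters' processing notes. Settings, annotation, read length and the use of strand were not given in the sources used here. Fragments that fit more than 1 gene can have been divided between near copies or overlapping genes, which bears on Saa1, Saa2, Ang and Rnase4.

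Groups were taken from the labels. Entries reaching 1 FPKM in 2 or more libraries were tested (11815 of 24346). limma 3.58.1 in R 4.3.3 fitted region and sex additively to log2(FPKM + 1) over the 6 libraries, with a trend of variance on level, 2 residual and 3.49 prior degrees of freedom. P-values were adjusted by the Benjamini-Hochberg method over all tested entries, and entries with an adjusted p under 0.05 were called. Differences on this scale understate changes near or below 1 FPKM. The fit was also run on simulated data with normal noise drawn from its own variances. Such data cannot show how the fit handles a library that stands apart. Because sex is a term of the model, the libraries of a sex are matched across regions.

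The steps between the smallest values gave an estimate of depth (genes with 1 transcript longer than 1500 bases, values under 0.2 FPKM, an assumed fragment of 200 bases). Fragments per gene were estimated from FPKM, depth and the length of the GENCODE transcript numbered 201, such as Lypd8-201. Both are approximate. A listed 0 may stand for a failed estimate. FPKM for the 6 libraries carry no error of their own, so precision rests on 2 libraries per region.

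Coordinates are from GENCODE M21 (mm10), matched by symbol for 23310 of 24346 entries. Promoters are from RefSeq GRCm38.p6, 250 bases before to 50 after a start site, and were found for all 9 genes. Alignments used biopython 1.88, and figures matplotlib 3.10.9 under Python 3.11.15. The 9 genes, the related lists and the tests were chosen with earlier results of these data known. From each list up to 4 called genes with the largest difference in any comparison are named with their values. Other genes named, such as Ang4, Pla2g2a, Lyz2, C3, Stat3, Cebpa, Cebpb, Zg16, Cxcl5 and some receptors, were chosen after their values were seen. The alternatives tried were to leave out each library in turn, sex or region, the filter or the variance trend, to use 0.1 as pseudocount or 5 FPKM as minimum, to scale by quantiles, by median ratios or to equal totals, and to sum related genes. The sum of Ang and Rnase4 was added after the values were seen.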

Additional observations from a re-analysis of the deposited data

Results flagged for a closer look

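With 2 libraries per region no group is large enough for a test of single outlying samples. Each of the 8 tested genes was instead compared within each sex in the 3 regional comparisons, which gave 24 pairs of differences on the log2(FPKM + 1) scale. In 7 of these 24 the male and the female difference had opposite signs. None of these contrasts between the sexes was tested, since each rests on 1 library of each region and sex. The share of opposite signs among all tested entries was not counted, so whether 7 of 24 is common here is not known. The pairs are also not independent, since distal against middle follows from the other regional comparisons. The values below are the female difference minus the male difference.

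In distal against proximal colon Saa2 was higher in males (from 0 to 3.12 FPKM) and lower in females (from 3.01 to 2.71 FPKM), a contrast of -2.15. Slpi was higher in males (from 0.555 to 2.45 FPKM) and lower in females (from 1.49 to 1.34 FPKM), a contrast of -1.24. In middle against proximal colon Ang was lower in males (from 37.8 to 25.4 FPKM) and higher in females (from 29.2 to 33.3 FPKM), a contrast of 0.74.

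In distal against middle colon 4 genes were higher in males and lower in females. The contrast was -0.51 for Pla2g10, -0.82 for Saa1, -2.21 for Saa2 and -0.55 for Slpi. Saa2 and Slpi make up 4 of the 7 pairs, and they rest on an estimated 0 to 17.9 and 3.0 to 16.0 fragments per library.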

How the results depend on the processing

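The labels carry no replicate numbers, and the reported fit, with sex as a term, is the one that matches the libraries of a sex across regions. In distal against proximal colon the count of the 8 genes called higher, 2 in the reported fit, was 1 without the filter and 1 with sex left out, and 0 to 2 with a library left out; the count called lower, 2, was 1 without the filter and 1 to 2 with a library left out. All entries called, 1668, came to 334 to 1518 with a library left out (334 without the male and 779 without the female distal library). In middle against proximal colon the 1 gene called lower became 0 without the filter, with sex left out, with 0.1 as pseudocount or with 5 FPKM as minimum, and was 0 to 1 with a library left out; 0 to 2 were then called higher. All entries called, 289, were 4 without the filter, 187 without the variance trend, 24 with sex left out and 0 to 777 with a library left out (61 and 0 without the male and female middle, 777 without the female proximal library). In distal against middle colon the 1 gene called lower became 0 under the same 4 settings and was 0 to 2 with a library left out. All entries called, 59, were 2 without the filter, 99 with scaling to equal totals, 29 without the variance trend, 17 with sex left out and 0 to 426 with a library left out (412 and 426 without the male and female proximal library, 36 or fewer without any other). Between the sexes the 8 genes stayed at 0 called in each setting run, and all entries called, 5, were 3 to 25 with a library left out (25 without either proximal library). The distal minus proximal difference of Saa2 was -0.13 to 2.06 with a library left out. With 1 library of a region left, that library was taken to vary as the rest do. The causes were not tested. Depth limits Lcn2, Saa2, Slpi and Saa3, and 2 libraries per region limit all the genes.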
